A study of Mus musculus with 10 samples.

Results

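Sprouty, Spred and Dusp6 are inhibitors that cells switch on when receptor tyrosine kinases signal, and that then hold the same signal back. The group examined here held 5 mouse genes, Spry1, Spry2, Spred1, Spred2 and Dusp6. They were found by symbol or Entrez identifier in the authors' deposited tables of changed probe sets, and all 5 were found, among 634 genes that could be named in those tables. They had 8 probe sets, 6 on the 430A array and 2 on the U74Av2 array. On 430A these were 1 each for Spry1, Spry2, Spred2 and Dusp6 and 2 for Spred1. On U74Av2 they were 1 each for Spred2 and Dusp6. Because names came only from tables that already listed changed probe sets, each of these 8 had been selected on the contrast of plus with minus GDNF. Their folds and p-values describe that selection and are no independent evidence of a change. Probe sets of these genes that the tables do not list were not analysed here.

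The samples were ureteric buds, the epithelial outgrowths that branch into the collecting system of the kidney, of E11.5 embryos of Swiss Webster mice, cultured within the basement membrane gel Matrigel. In the plus GDNF groups (3 arrays on 430A and 3 on U74Av2) the buds received 100 ng/mL GDNF for 16 h before extraction, and in the minus GDNF groups (2 arrays on each type) they were kept for 16 h without it. Each array carried pooled RNA from roughly 5 to 6 batches, each of 30 to 40 buds, so an array stands for many embryos and the spread between arrays is a spread between pools. The 2 array types carry different probe sets and were never set against each other in level.

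GDNF binds Gfra1 and activates the receptor tyrosine kinase Ret, which signals through Ras and the kinase ERK at the tips of the branching bud. Sprouty proteins act between the receptor and the Ras-Raf step, Spred proteins recruit neurofibromin to the membrane to switch Ras off, and Dusp6 removes the activating phosphates from ERK in the cytoplasm. In mouse kidney development, Spry1 is known as a brake on Ret: embryos that lack it form extra ureteric buds.

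ERK acts on transcription in part through ETS factors. Etv4 and Etv5, ETS factors known as Ret targets in the bud, are themselves listed as higher with GDNF in the authors' deposited tables. That listing was the condition for naming them. On 430A the limma adjusted p was 0.15 for Etv4, and 0.084 and 0.19 for the probe sets of Etv5. Whether these factors act on the members was not tested. The promoter windows of the 5 genes are described from 250 bases before to 50 bases after the RefSeq transcription start on GRCm38.p6. The ETS core CGGAAG was searched on both strands and was found in 3 of the 5 windows. Of 32851 RefSeq windows of the same length, 16.9% hold it. The cAMP response element TGACGTCA, which cannot overlap that core, was found in 0 of the 5 windows and in 1.79% of all windows. The 3 windows with a match are printed 5′ to 3′ along the gene, with the match in capitals (CTTCCG is the core read on the opposite strand). Spred1 lies on chr2:117120821-117121120, plus strand, and has 2 matches, which begin 17 bases before and 8 bases past the start. Spred2 lies on chr11:19924192-19924491, plus strand, with a match that begins 43 bases before the start. Dusp6 lies on chr10:99262981-99263280, plus strand, with a match 62 bases before it.
Spred1: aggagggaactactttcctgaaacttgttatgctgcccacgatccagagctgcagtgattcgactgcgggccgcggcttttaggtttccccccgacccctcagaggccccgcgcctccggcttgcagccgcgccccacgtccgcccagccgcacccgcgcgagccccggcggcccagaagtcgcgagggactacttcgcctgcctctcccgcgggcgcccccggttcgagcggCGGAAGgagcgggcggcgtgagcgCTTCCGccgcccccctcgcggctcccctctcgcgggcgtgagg
Spred2: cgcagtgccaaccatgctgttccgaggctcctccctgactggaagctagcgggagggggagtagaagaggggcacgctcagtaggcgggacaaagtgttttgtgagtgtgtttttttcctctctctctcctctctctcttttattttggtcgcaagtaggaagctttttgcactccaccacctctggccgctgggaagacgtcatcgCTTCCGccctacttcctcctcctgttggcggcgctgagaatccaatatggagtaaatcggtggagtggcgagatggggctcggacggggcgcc
Dusp6: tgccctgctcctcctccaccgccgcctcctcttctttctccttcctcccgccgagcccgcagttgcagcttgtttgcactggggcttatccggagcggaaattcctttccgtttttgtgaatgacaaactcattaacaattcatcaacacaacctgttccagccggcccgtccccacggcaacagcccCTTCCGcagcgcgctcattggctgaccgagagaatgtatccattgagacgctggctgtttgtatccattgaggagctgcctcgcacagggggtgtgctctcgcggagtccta
The windows of Spry1 (chromosome 3) and Spry2 (chromosome 14) held neither motif. A match describes letters in the sequence and is not evidence that a factor binds there.

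All 5 genes were higher with GDNF. On each of the 8 probe sets every plus GDNF array lay above every minus GDNF array. That held for 6 of 6 member probe sets on 430A, against 15.3% of the 19521 probe sets tested there, and for 2 of 2 on U74Av2, against 17.5% of 10588. The authors' deposited table lists as higher 2.4% of the 430A probe sets and 2.2% of those on U74Av2, and membership in those tables was the condition for being named here. The median log2 change of the member probe sets was 1.11 on 430A, against -0.07 over all tested probe sets, and 1.75 on U74Av2, against -0.04. By limma, with Benjamini-Hochberg adjustment over all probe sets of the type, 0 of the 6 member probe sets on 430A had an adjusted p under 0.05 (0% of all probe sets were called there as higher) and 0 of the 2 on U74Av2 did (0.00944% of all). On 430A, 4 of 6 had an adjusted p under 0.1 (0.902% of all probe sets), and on U74Av2 0 of 2 did (0.0472% of all). At an unadjusted p under 0.05 there were 6 of 6 on 430A (8.21% of all, as higher) and 2 of 2 on U74Av2 (7.77% of all). In bulk RNA, more cells expressing a gene and more RNA in each cell cannot be told apart.

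**Figure D1:**
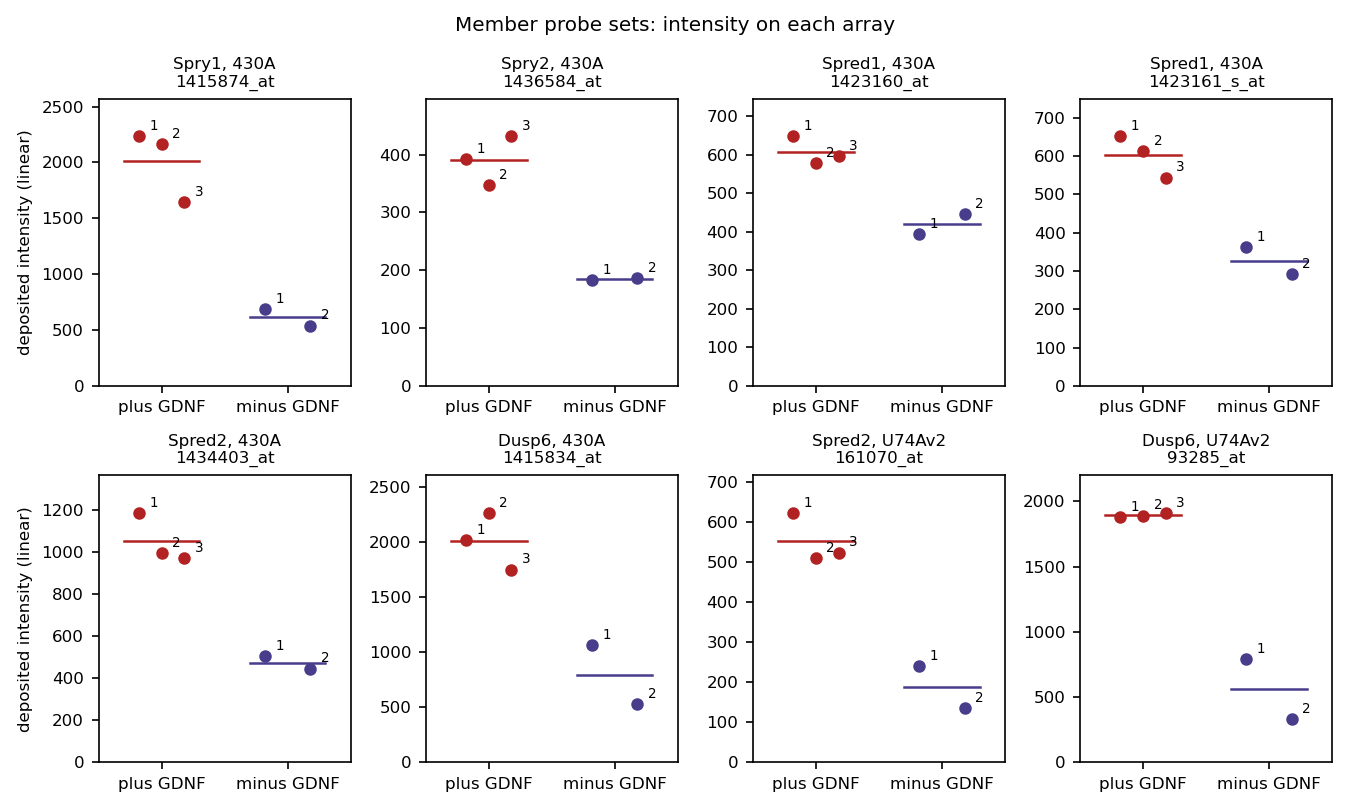
Deposited intensity (linear scale, starting at 0) of the 8 member probe sets on each array, with plus GDNF on the left and minus GDNF on the right of each panel; points carry the sample number and lines mark group means. In every panel the plus arrays lie above the minus arrays, and the widest gap between minus arrays is that of Dusp6.

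Of the Sprouty genes, Spry1 had the largest change of the group on 430A. Its probe set 1415874_at measured 2234, 2163 and 1645 in the plus GDNF pools, against 691 and 540.1 in the minus GDNF pools. The plus pools averaged 2014 ± 322 (SD, n = 3) and the minus pools 615 ± 106 (SD, n = 2), so even the lowest plus pool was 2.38 times the highest minus pool. The log2 change was 1.71 ± 0.18 (SE), a 3.27-fold difference with a limma adjusted p of 0.054, and it ranked 5 among the 19521 tested probe sets of the array by log2 increase. The table also lists a locus described as similar to Spry1 for this probe set, and its identifier was not in the RefSeq gene table used.

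Spry2, a second Sprouty with the same place in the pathway, differed by 2.11-fold from a lower signal. Its probe set 1436584_at measured 392, 348 and 431 with GDNF, against 183 and 186 without. The minus pools were nearly equal, at a ratio of 1.02 between them, and the lowest plus pool was 1.87 times the highest minus pool. The log2 change was 1.08 ± 0.12 (SE, limma adjusted p = 0.054). With the intensity floor raised from the 20th to the 40th percentile of the table, the log2 change of Spry2 was 0.72, because its minus arrays then lay below the floor.

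Spred2, which unlike the Sprouty proteins carries an EVH1 domain, was measured on both array types. On 430A (1434403_at) it stood at 1186, 994 and 971 with GDNF, against 503 and 446 without, a 2.21-fold difference (log2 1.14 ± 0.13 SE, limma adjusted p = 0.054). On U74Av2 (161070_at) it stood at 624, 511 and 525 with GDNF, against 239.9 and 136 without, a 3.05-fold difference (log2 1.61 ± 0.26 SE, limma adjusted p = 0.17). The groups did not overlap on either type. Plus array 1 carried the highest Spred2 value and minus array 2 the lowest on both types.

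Spred1, its close relative, had the smallest changes, and its 2 probe sets on 430A differed. Both derive from the same GenBank entry, so they are 2 readings of 1 gene and not replicates. The probe set 1423161_s_at measured 651, 613 and 543 with GDNF, against 361 and 292 without (log2 0.89 ± 0.14 SE, 1.85-fold, limma adjusted p = 0.089). The probe set 1423160_at measured 648, 578 and 597 with GDNF, against 395 and 446 without (log2 0.53 ± 0.11 SE, 1.45-fold, limma adjusted p = 0.14). Their plus values lay close together, whereas the minus arrays ranked in opposite order, with array 1 higher on the first and array 2 higher on the second.

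Dusp6, the ERK phosphatase, combined a large change with the widest spread between control pools. On 430A (1415834_at) it measured 2019, 2269 and 1753 with GDNF, against 1063 and 529 without, and averaged 2014 ± 258 (SD, n = 3) and 796 ± 378 (SD, n = 2). On U74Av2 (93285_at) it measured 1879.8, 1892 and 1913 with GDNF, against 790.0 and 329 without. The plus arrays on U74Av2 thus agreed to a ratio of 1.02 between highest and lowest, while the minus arrays differed 2.40-fold. The log2 change was 1.42 ± 0.30 on 430A (SE, 2.67-fold, limma adjusted p = 0.15) and 1.89 ± 0.36 on U74Av2 (SE, 3.72-fold, limma adjusted p = 0.21).

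The gap between the minus GDNF arrays was wider for Dusp6 than for the other members on both types. Minus array 1 was 2.01 times minus array 2 on 430A, where 0.804% of tested probe sets had a larger gap in either direction, and 2.40 times on U74Av2, where 1.05% had a larger one. Of the probe sets that the authors' deposited table lists, 0 of 693 on 430A and 0 of 312 on U74Av2 had a larger gap than Dusp6. Listing required a lower 90% bound of the fold over 1.2, which works against wide gaps, so these counts partly reflect that filter. The corresponding ratio on 430A was 1.28 for Spry1, 1.13 for Spred2, 0.98 for Spry2, and 1.24 and 0.89 for the Spred1 probe sets 1423161_s_at and 1423160_at, and on U74Av2 it was 1.76 for Spred2. The size of the Dusp6 change therefore turned on which control pool was used. Without minus array 1 it was 3.79-fold (log2 1.92) on 430A and 5.76-fold (log2 2.53) on U74Av2, and without minus array 2 it was 1.88-fold (log2 0.91) and 2.40-fold (log2 1.26). Spry1 ranged from 2.89-fold to 3.69-fold and Spry2 from 2.09-fold to 2.13-fold when either 430A minus array was left out. Spred2 on U74Av2 also turned on the control pool, at 4.04-fold without minus array 1 (log2 2.02) and 2.30-fold without minus array 2 (log2 1.20).

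**Figure D2:**
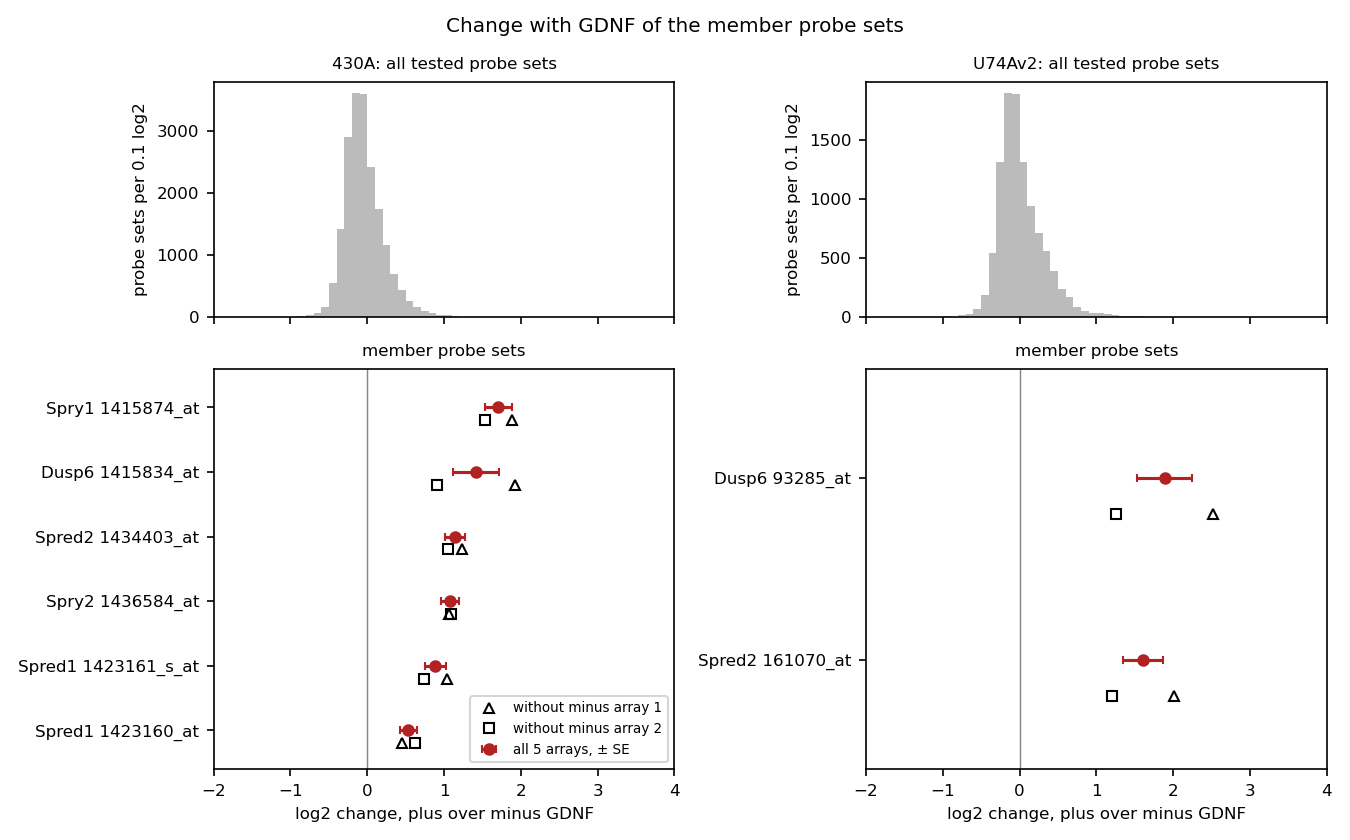
Upper panels give the number of tested probe sets in each bin of log2 change (plus over minus GDNF, bins of 0.1); lower panels give the member probe sets with all 5 arrays (filled, bars are SE) and without either minus array (open symbols). All member changes are above 0, from 0.53 to 1.71 on 430A, and the open symbols lie farthest apart for Dusp6.

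RNA integrity moved with the same array. The 3' over 5' ratio of the Gapdh control probe sets, which is higher when RNA is shortened, was 1.19, 1.12 and 1.52 on the plus arrays of 430A and 1.09 and 1.74 on the minus arrays. On U74Av2 it was 1.22, 1.06 and 1.46 on the plus arrays and 1.10 and 1.60 on the minus arrays. Minus array 2 had the highest ratio and the lowest Dusp6 on both types. Plus array 3, with the second highest ratio, had the lowest Dusp6 of the plus arrays on 430A and the highest on U74Av2. Without both of these arrays, which were picked once their values were known, the log2 changes were 1.01 for Dusp6, 1.67 for Spry1, 1.11 for Spred2 and 1.01 for Spry2 on 430A. They were 0.81 and 0.63 for the Spred1 probe sets 1423161_s_at and 1423160_at, and on U74Av2 1.26 for Dusp6 and 1.23 for Spred2. The part of RNA integrity in the spread of Dusp6 was not tested.

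Dusp6 and Spred2, the members on both array types, allowed a test over 10 arrays. The mean log2 change over the types was 1.66 for Dusp6 and 1.37 for Spred2, each with p = 0.01 in an exact two-sided permutation test within type, the smallest value that its 100 arrangements can give. Both genes were named because the deposited tables of both types list them for this contrast. The p-values of this permutation test therefore restate that selection and are no independent evidence. That test counts the pools of the 2 types as separate, as the series text states. Same-named arrays of the types, however, shared their deviations from the group means: over the 184 genes named on both types these correlated at 0.408 to 0.592. Within a type the deviations of the minus arrays mirror each other, so both have the same value, 0.451. Those of the plus arrays cancel out, so the correlations are not independent of each other. If same-named arrays are permuted together, 10 arrangements remain and p = 0.1 for both genes by the exact test, which is again the smallest possible. The change did not differ detectably between types. Its log2 difference, U74Av2 minus 430A, was 0.48 ± 0.46 (SE) for Dusp6 and 0.47 ± 0.30 (SE) for Spred2, with limma adjusted p of 0.86 and 0.83 in the interaction test. That test called 1 of the 184 genes (0.543%). All of these genes had to be listed as changed on both types, which partly selects for like changes. The test therefore cannot show that the types agree. It also counts same-named arrays of the types as separate, so its SE leaves out their shared deviations. The Dusp6 difference was -0.03 without 430A minus array 1 and -0.16 without U74Av2 minus array 2, so its sign is not fixed.

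**Figure D3:**
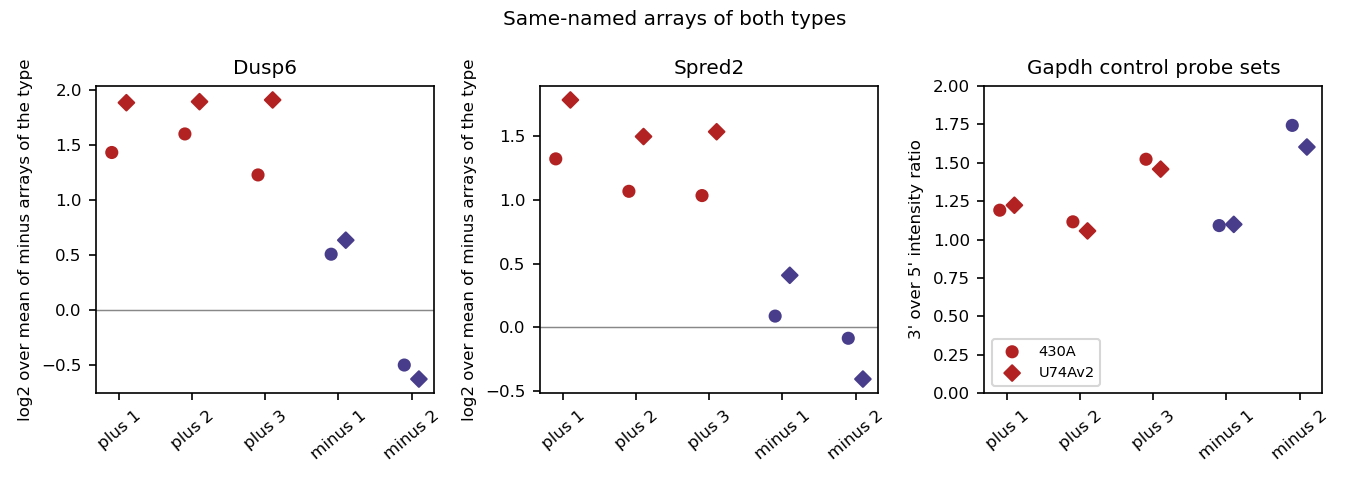
For each sample name (x axis), Dusp6 and Spred2 as log2 over the mean of the minus arrays of the same type, and the Gapdh 3' over 5' ratio; circles are 430A, diamonds U74Av2, red plus GDNF and dark blue minus GDNF. Minus array 2 is lowest for both genes and has the highest Gapdh ratio on both types, at 1.74 and 1.60.

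Ratios between members within an array set their changes side by side. The log2 ratio of Spry1 to Spred1 (1423160_at) ran from 1.46 to 1.90 on the plus arrays and from 0.28 to 0.81 on the minus arrays, a difference of 1.17. The ratio of Spry1 to Spred2 ran from 0.76 to 1.12 on the plus arrays and from 0.28 to 0.46 on the minus arrays, a difference of 0.57. The log2 ratio of Spry1 to Dusp6 overlapped between the groups, at -0.09 to 0.15 on the plus arrays and -0.62 to 0.03 on the minus arrays. Spred2 and Spry2 kept nearly the same ratio, at 1.17 to 1.60 on the plus arrays and 1.26 to 1.46 on the minus arrays (difference 0.07). Over the 15 pairs of 430A member probe sets the smallest exact permutation p was 0.1, the smallest that 10 arrangements allow, and the smallest after Benjamini-Hochberg adjustment was 0.21. No pair could therefore pass a threshold of 0.05 in this design, and unequal change between members was not shown. The 2 probe sets of Spred1, readings of the same gene, themselves differed by 0.35 in log2 change.

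In the authors' deposited table for 430A, the folds were 3.26 for Spry1 (90% bounds 2.51 and 4.34), 2.53 for Dusp6 (1.59 and 5.75), 2.20 for Spred2 (1.87 and 2.61) and 2.11 for Spry2 (1.69 and 2.71). The authors' deposited table gives 1.83 and 1.48 for the Spred1 probe sets, the second with a lower bound of 1.25, close to the limit of 1.2 that a probe set had to exceed. In the authors' deposited table for U74Av2, Dusp6 has a fold of 3.32 with bounds of 1.84 and 16.2, and Spred2 one of 2.96 with bounds of 1.92 and 6.17. The wide upper bound belongs to the probe set with the widest gap between minus arrays. Nearest to the limit of 100 on the difference of means was Spred1 1423160_at, at 197 in the authors' deposited table.

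The rest of the pathway was read from a list of 72 genes of Ret, Ras and ERK signalling. Of these, 7 were named on 430A, 6 higher and 1 lower with GDNF, and 6 on U74Av2, 5 higher and 1 lower. A gene could be named only if the authors' deposited table lists it as changed, and of all listed probe sets 542 of 693 on 430A and 273 of 312 on U74Av2 were higher, so these splits say nothing particular to the pathway. By limma 0 of them passed an adjusted p of 0.05 on either type. Among receptors on 430A, Ret stood at log2 1.49 ± 0.30, the receptor tyrosine kinase Kit at 0.69 ± 0.17, and the FGF receptor Fgfr2 at -0.60 ± 0.13 on its brighter probe set (all SE). On U74Av2 Ret stood at 1.77 ± 0.36 and Kit at 1.56 ± 0.23 (SE), and the Kit fold was 2.94 there and 1.62 on 430A. The log2 difference of Kit between types, U74Av2 minus 430A, was 0.86 ± 0.29 (SE, limma adjusted p = 0.32 in the interaction test). Fgfr2 was thus the 1 named receptor of the list that was lower, at 1625 ± 210.1 with GDNF and 2445 ± 158 without (SD, n = 3 and 2). None of the 16 adaptor and Ras genes and none of the 13 kinases in the list was named, so the steps between the receptors and ERK were not analysed here.

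Of the 16 other feedback inhibitors in the list, the phosphatases Dusp9 and Dusp2 were named. Dusp9, which like Dusp6 acts on ERK in the cytoplasm, stood at log2 0.94 ± 0.18 and 0.85 ± 0.13 on its 2 probe sets of 430A and at 1.11 ± 0.21 on U74Av2. Dusp2, a nuclear phosphatase of the same family, was the opposite case. It measured 509 ± 35.1 with GDNF and 683 ± 36.3 without on U74Av2 (SD, n = 3 and 2), log2 -0.42 ± 0.14 (limma adjusted p = 0.44). Among the transcription factors and response genes, Etv4 stood at log2 1.43 ± 0.31 on 430A and 1.53 ± 0.20 on U74Av2, Etv5 at 1.97 or more on its brighter 430A probe set, and cyclin D1 (Ccnd1) at 1.67 ± 0.26 on 430A. The Etv5 value is a lower bound set by the intensity floor of 143, since its minus arrays averaged 105. On the brightest 430A probe set of each gene, the Spry1 change lay between those of Ccnd1 and Etv5. The dimmer Ccnd1 probe sets on 430A stood lower, at log2 1.52 and 1.398. The dimmer Etv5 probe set there stood at 1.04 or more, also a lower bound, so its order with Spry1 is not fixed. The Spred1 changes lay among the smaller ones.

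**Figure D4:**
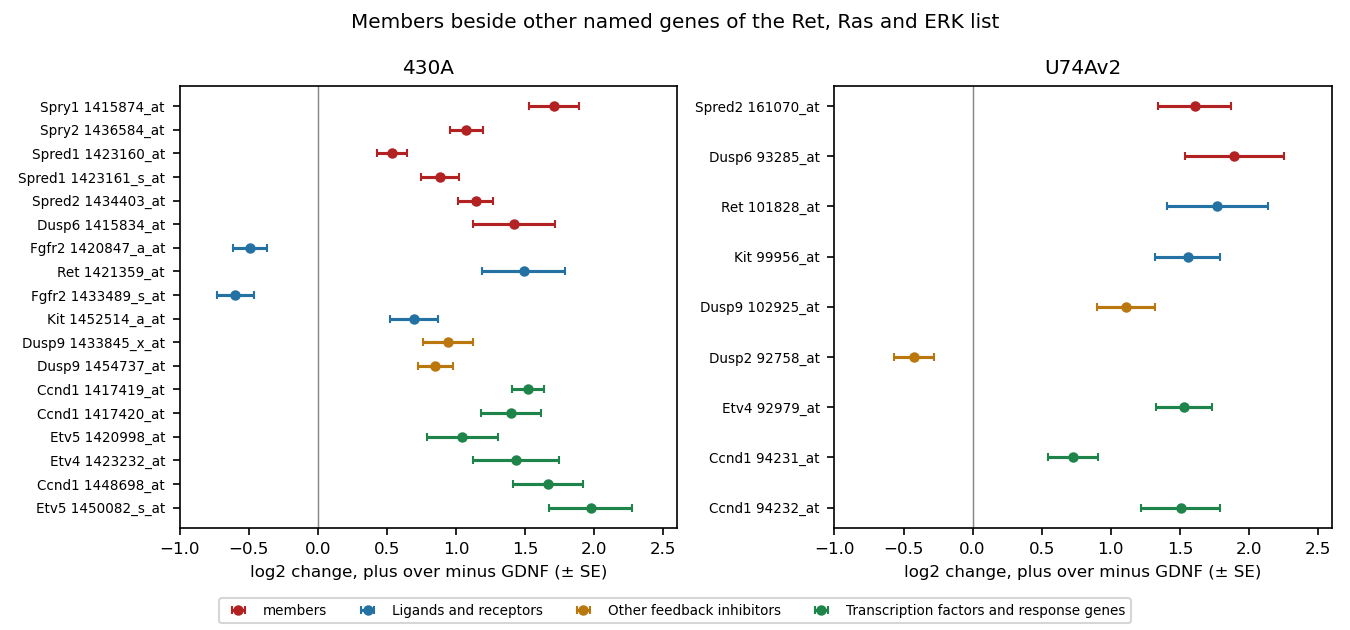
Log2 change (plus over minus GDNF, bars are SE) of member probe sets and of the other named probe sets of the pathway list on each array type, coloured by role. The members run from 0.53 to 1.71 on 430A, and Fgfr2 on 430A and Dusp2 on U74Av2 lie below 0; the Etv5 values are lower bounds set by the floor.

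The genes with patterns most like those of the members were sought among 651 other named probe sets on 430A, by the root mean square difference of log2 intensity over the 5 arrays, each probe set centred on its minus arrays. Spry1 lay nearest to Ccnd1 (1448698_at, difference 0.11), then the phosphoinositide phosphatase gene Mtm1 (0.17). Dusp6 lay nearest to another Ccnd1 probe set (1417420_at, 0.16), then the mitotic cyclin Ccnb1 (0.19). Spry2 lay nearest to the lipoprotein receptor gene Vldlr (0.08) and Racgap1 of cytokinesis (0.09), and Spred2 to Pclaf, a partner of the replication clamp (0.05). The Spred1 probe set 1423160_at lay nearest to the zinc finger factor gene Plagl2 (0.01) and to Lrr1 (0.03). The set 1423161_s_at lay nearest to the kinesin Kif22 (0.02) and the primase gene Prim1 (0.04), so its 2 probe sets had different neighbours. All neighbours come from tables of genes selected for the same contrast.

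Markers of cell types were read beside these values. On 430A, 7 of 17 listed bud epithelium markers were named, 5 of them higher and 2 lower with GDNF (Krt8 and Cdh16), among markers that had to be listed as changed to be named. The authors' deposited table lists 542 of all 693 probe sets as higher and 151 as lower, so the split is not a result about bud markers. On 430A 0 of the named markers were listed at an intensity of 0. Their summed intensity was 16367 to 16573 on the plus arrays and 16452 to 16942 on the minus arrays. Bright markers in this sum moved in opposite directions. Calb1 averaged 5988 with GDNF and 3661 without, Krt8 4057 and 5801, and Cdh16 2902 and 5367. The near equal sums therefore do not measure the share of bud cells. The 2 named of 9 mesenchyme markers, Cited1 and Cdh11, summed to 710.0 to 852 with GDNF and 1122 to 1130.2 without. The 3 named of 11 stromal markers, Vim, Postn and Tcf21, summed to 1464 to 2018 with GDNF and 2796 to 2798 without. On U74Av2 the 3 named bud markers summed to 4339 to 5568 with GDNF and 1711 to 2223 without. They were Ret, Calb1 and Wnt11, a ligand of the bud tip, and Wnt11 was the 1 probe set called on that type (limma adjusted p = 0.011), with both minus arrays under the floor. The bud sums of the 2 types cover different markers, since Krt8 and Cdh16 were not named on U74Av2. There the 1 named stromal marker, Acta2, ran from 399 to 513 with GDNF and from 507 to 705 without, and 0 mesenchyme markers were named. The 5 endothelial and 4 blood markers had no named probe set. The part of a different share of mesenchyme or stroma in the members' changes was not tested.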

How the data were processed

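Arrays were grouped by the GDNF label and array type in their titles. The authors' deposited value tables give 1 linear intensity per probe set and array, and how it was normalized and summarized is not given in the sources used here. Per the series text, the authors compared groups in dChip 1.3. Their deposited tables list probe sets with a lower 90% bound of the fold over 1.2 and a difference of means over 100, and the folds and bounds there are signed (unit score). Entrez identifiers were brought to current symbols with RefSeq's mouse gene table (GRCm38.p6, names only), which left 1 gene for 661 of 693 listed probe sets on 430A and for 292 of 312 on U74Av2.

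Intensities below the 20th percentile of each table (143 and 65.0) were set to it, and log2 was taken. Control probe sets (64 and 66) and probe sets at the floor on every array (3105 and 1834) were left out. Each type was fitted over all its probe sets in limma 3.58.1 under R 4.3.3 (two-sided, adjusted p under 0.05), a fit first tested on simulated data. The interaction of type and GDNF was fitted over the 184 genes named on both types, with the brightest probe set of each. Single values were tested by exact permutation. Pools are the replicates, so p-values measure the spread between pools. The number of arrays limits the precision.

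The members and all gene lists were chosen with earlier results of these data known. Named genes were the members, the pathway and marker lists, and the 2 nearest genes in pattern per member probe set, 1 of which is not reported here. Promoter sequences are RefSeq's, and all 5 genes matched. Alternatives were 2 normalizations, other floors and filters, another variance model, the sample number as a block and leaving out arrays.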

Additional observations from a re-analysis of the deposited data

How the results depend on the processing

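All 111 recomputed log2 changes of the 8 member probe sets kept their direction, and 10 of them passed an adjusted p of 0.05 that none passed at first. Every plus array lay above every minus array on these probe sets. Leaving out arrays, other floors or filters, the variance model and the block therefore had no way to reverse a direction. Only the 2 normalizations bore on it. Under these the smallest log2 change, of Spred1 1423160_at, was 0.55 with quantile normalization and 0.58 with array medians centred. With array medians centred, Spry1, Spred2 and Spry2 on 430A had adjusted p = 0.029. Among probe sets above the median level, Spry1 (0.019), Spred2 (0.024) and Spred1 1423161_s_at (0.041) passed, and Spry2 was too dim to be tested. With a trended robust variance Spry1 (0.042), Spred2 (0.046) and Spry2 (0.048) passed, and with the floor at the 10th percentile Spry1 (0.046). Dusp6 passed under none of these settings, and the adjusted p of all members ran from 0.019 to 0.84.

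Over all probe sets of 430A limma called 0 (2588 at an unadjusted p under 0.05), and 198 at an adjusted p under 0.1, 102 with medians centred, 30 with the floor at the 10th percentile, 149 above the median level and 48 with a trended variance. On U74Av2 it called 1, and 5 at an adjusted p under 0.1, 2 with medians centred, 0 with the floor at the 40th percentile, 2 with no filter on low values, 4 above the median level and 3 with a trended variance. Leaving out 1 array there gave 0 to 1 calls, and leaving out plus array 3 and minus array 2 together (also added on seeing the data) gave 0. A lone minus array was assumed to vary like the plus arrays.

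With same-named arrays permuted together, an alternative added on seeing the data, Dusp6 (1.66) and Spred2 (1.37) had p = 0.1 by the exact test, since fewer arrangements exist. The difference of Dusp6 between types ran from -0.16 to 1.11 when 1 array was left out, with -0.03 without 430A minus array 1. With the sample number as a replicate block it was 0.37 for Dusp6 and 0.45 for Spred2, and the block gave Spry1 a log2 change of 1.85 (adjusted p = 0.42) on 430A. The block called 0 probe sets on 430A and 1 on U74Av2. The labels give plus and minus arrays of 1 number no link beyond that number. Their deviations correlated at -0.02 and -0.62 on 430A and at 0.16 and -0.70 on U74Av2. The minus deviations of each type mirror each other, so these correlations cannot settle whether the arrays were paired. Array medians lay between 281 and 321 on 430A and between 211 and 248 on U74Av2.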
